A study of Homo sapiens with 16 samples.

Results

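β-Lapachone was compared with control medium in the IgG precipitates of HepG2 cells, an established human hepatocarcinoma line. In these 8 arrays, of 16 in the series, cytoplasmic lysate had been incubated with protein-A Sepharose beads carrying non-specific mouse IgG. The cells had been kept for 30 min in regular medium (control, 4 arrays) or in medium with 10 µM β-lapachone (4 arrays), and the other 8 arrays held anti-NQO1 precipitates from the same media. The arrays were single-colour Illumina expression arrays, and the amplification from an oligo-dT primer means that they read polyadenylated RNA. Of the 47231 probes in the table, the 15867 with a detection p under 0.05 on at least 4 of the 8 IgG arrays were tested. The table gives probe IDs with no gene names, and the reference tables held none of these IDs, so the RNAs described here are known by probe only. The check of hepatocyte markers and the gene lists planned could not be made.

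An IgG precipitate is the negative control of RNA immunoprecipitation. It collects RNA that stays on beads or antibody without a targeted protein, and abundant cytoplasmic mRNAs usually dominate it. β-Lapachone is a quinone that the enzyme NQO1 reduces. The reduced form is oxidised again by oxygen, and this cycle consumes reducing equivalents and generates reactive oxygen species. A comparison of treated with control IgG precipitates therefore asks which background RNAs differ with the drug before any binding to NQO1 is considered. No array of input RNA was analysed here, so a change in how much of an RNA the cytoplasm held and a change in how much of it stayed on the beads cannot be told apart. The labels do not say whether replicates were separate cultures, and the tests therefore speak of the spread between arrays, part or all of which may be technical.

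The 8 arrays differed more among themselves than with the drug. In control medium replicates 1, 2, 3 and 4 detected 16594, 13524, 17632 and 17230 probes. After β-lapachone they detected 17960, 13059, 16641 and 9223. The groups overlapped, and the difference of the means, -2024 probes after the drug, had p = 0.429 by the exact permutation test (two-sided, n = 4 each, adjusted p = 0.571 over 3 array measures). With 4 arrays against 4 this test cannot give a p under 0.0286. Without replicate 4 after the drug the difference was -358, and without replicate 1 after the drug it was -3271. Replicate 4 after the drug detected 50.8% of the tested probes, against 75.3% to 95.8% on the other 7 arrays, and its median deposited intensity over those probes was 99.4, against 147 to 337.

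**Figure D1:**
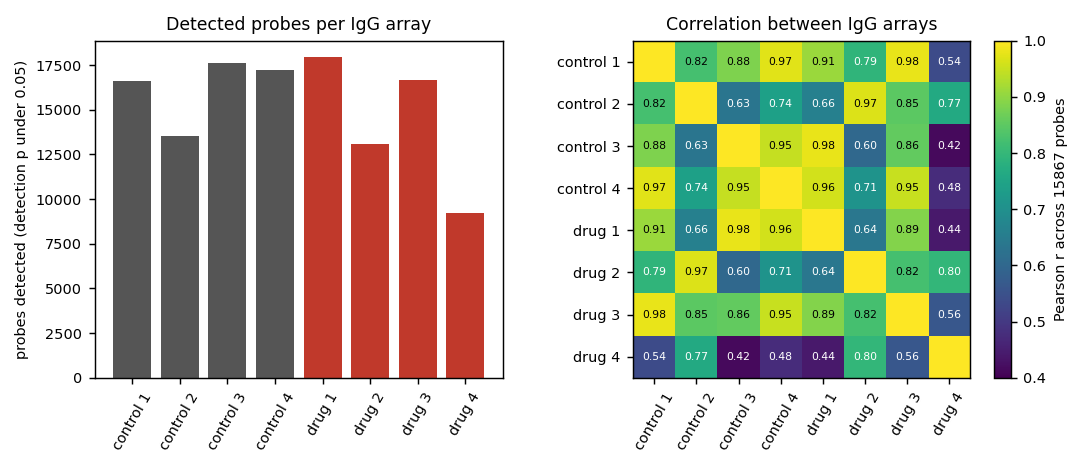
Left, number of probes detected on each IgG array (detection p under 0.05) in control medium (grey) and after β-lapachone (red); right, Pearson r of the normalized log2 intensities of each pair of IgG arrays across the 15867 tested probes. Replicate 4 after the drug has the fewest detected probes (9223), and 6 of the 8 arrays correlate best with an array of the other medium.

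Pairs of arrays from the same medium correlated at a median r of 0.811 across probes (12 pairs, 0.440 to 0.972), and pairs from different media at 0.820 (16 pairs, 0.416 to 0.981). The closest relative of 6 of the 8 arrays was an array of the other medium. Control replicate 1 and drug replicate 3 correlated at 0.981, control replicate 3 and drug replicate 1 at 0.980, and control replicate 2 and drug replicate 2 at 0.968. The last of these pairs holds the arrays with 13524 and 13059 detected probes. The first principal component of the 8 arrays held 70.8% of their variance, of which 14% lay between the media. The 2 group means correlated at r = 0.938.

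No probe passed limma's test for β-lapachone in the IgG precipitates, 0% of the 15867 tested (Benjamini-Hochberg adjusted p under 0.05, smallest adjusted p 0.149). At an unadjusted p under 0.05 there were 197 probes, 63 of them higher (0.397%) and 134 lower (0.845%) after the drug. The median half-width of the 95% confidence intervals was 1.37 (log2), so differences under that size lay within the error of a typical probe. Leaving out 1 array moved the 197 by over 1.5 times in 7 cases. The count was 108, 333 and 84 without control replicates 1, 2 and 4, and 592, 772 and 83 without drug replicates 1, 3 and 4, all of IgG. It was 323 without control replicate 4 of NQO1, an array that enters the fit of this contrast only through the shared estimate of the spread.

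The middle 90% of the log2 differences between drug and control lay between -1.39 and 1.05, with a median of -0.12. A difference of at least 1 on that scale was found higher for 967 probes (6.09%) and lower for 2052 (12.9%). These counts moved with single arrays. Without drug replicate 4 they were 39 and 236, and without drug replicate 1 they were 2645 and 3739. Of the other IgG arrays, leaving out control replicates 2, 3 and 4 or drug replicates 2 and 3 also moved the higher count by over 1.5 times, to 2326, 420, 626, 548 and 1994 in that order. The lower count became 3468 without control replicate 2 and 3443 without drug replicate 3. The balance also moved with the scaling: 32% of the probes past this size were higher in the main processing, 2.60% when arrays were centred on their medians (median difference -0.38) and 21.9% without background correction. Among the probes detected on all 8 IgG arrays the balance turned, with 644 higher and 328 lower (66.3% higher). The SD between replicates had a median of 0.68 in control medium and 1.12 after the drug, or 0.77 without drug replicate 4, on the log2 scale.

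Of the 5 ranges of brightness examined, the brightest had the narrowest spread of differences. Among the 100 probes with the highest mean, which held normalized intensities of 13.64 to 14.40 (log2), the median difference was -0.02, the middle 90% lay between -0.57 and 0.35, and the median half-width of the confidence interval was 0.65. Between ranks 4001 and 10000 the middle 90% ran from -1.51 to 1.13 and the median half-width was 1.67. Probes detected on all 8 arrays (6838) had a median difference of 0.32, and those detected on 7 (3699) of -0.63. For the latter the median SD after the drug was 1.51, against 0.66 in control medium. At the edge of the detection rule, the 1389 probes detected on exactly 4 IgG arrays had a median level of 5.29 and a median difference of -0.05, and the 1725 detected on 3, which were not tested, had 5.13 and -0.04 (log2).

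**Figure D2:**
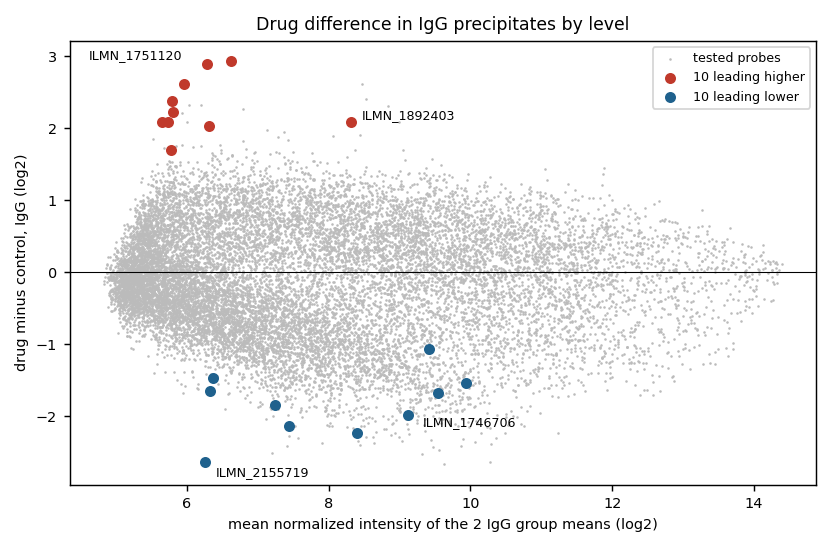
Difference between drug and control in the IgG precipitates (log2, vertical axis) against the mean normalized intensity of both groups (log2, horizontal axis) for the 15867 tested probes, with the 10 probes of smallest p in each direction in red and blue. The leading higher probes lie at mean levels of 5.65 to 8.31 and the leading lower probes at 6.26 to 9.93, all below the brightest RNAs.

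The probe with the smallest p among the higher values was ILMN_1751120. Its deposited intensity was 128.2, 100.9, 114.4 and 124.3 on control replicates 1 to 4, none of them detected. After β-lapachone it was 272.7, 193.5, 224.4 and 110.7 on replicates 1 to 4, all detected. On the deposited scale replicate 4 after the drug lay within the control range, on an array whose median over all probes was 92.2. After normalization the control arrays read 4.96, 4.70, 4.76 and 4.96 and the drug arrays 6.99, 8.14, 7.16 and 8.66 (log2). The groups then did not overlap, with a gap of 2.02 between them. The means were 4.85 ± 0.14 in control medium and 7.74 ± 0.80 after the drug (SD, n = 4 each). No control array detected it, so the fold in the main processing is given as a bound on the control side only. The probe was at least 6.10-fold higher there and did not pass limma's test (adjusted p = 0.149). It passed without drug replicate 3 of NQO1, which enters the fit of this contrast only through the estimate of the spread (adjusted p = 0.0352 by limma). It met the detection rule through the drug group alone.

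For the bound, each control array was given the lowest normalized value among its detected probes, or the probe's own value where that was higher. Drug values were used as normalized, so the bounds here and below hold for the main processing only. Across the alternatives apart from leaving out 1 array, the difference ran from 1.38 (no background correction) to 2.89, with 1.89 under median centring (log2).

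The leading higher probe among those detected on all 8 IgG arrays was ILMN_1892403. It read 6.23, 8.37, 7.26 and 7.23 on control replicates 1 to 4 and 8.86, 9.86, 8.10 and 10.6 on drug replicates 1 to 4 (log2). Control replicate 2 lay above drug replicate 3, so the groups overlapped by 0.27. The difference was 2.08 (SE 0.65, or 4.24-fold, adjusted p = 0.821 by limma), with a 95% confidence interval of 0.70 to 3.47. The same values chose the named probes, so the intervals of their IgG differences, here and below, are descriptions. The deposited intensities, 172.9 to 271.2 in control medium and 312.8 to 699.1 after the drug, did not overlap.

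Of the lower values ILMN_2155719 led. Its control arrays read 7.20, 6.79, 8.46 and 7.86 and its drug arrays 5.73, 4.52, 4.84 and 4.68 (log2), with no overlap and a gap of 1.06. It was detected on all 4 control arrays but only on replicate 1 after the drug. Drug minus control was -2.63 with SE 0.55 (limma's adjusted p = 0.821), and had a 95% confidence interval of -3.81 to -1.45, where 3 of the 4 drug values were not above background. The deposited intensities were 122.7 to 476.6 in control medium and 91.8 to 163 after the drug, where control replicate 2 lay below drug replicate 1.

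ILMN_1746706 led the lower values among probes detected on all 8 arrays. It was bright in control medium, at 10.3, 10.5, 9.38 and 10.27 on replicates 1 to 4, and read 7.18, 9.45, 8.60 and 7.31 after the drug (log2). Only drug replicate 2 reached the control range, above control replicate 3 by 0.07. Drug minus control was -1.98 with SE 0.55, or 3.94-fold lower (limma's adjusted p = 0.821), with a 95% confidence interval of -3.15 to -0.81. The deposited intensities were 768.2 to 1641 in control medium and 100.1 to 507.8 after the drug and did not overlap. The lowest of them, on drug replicate 4, was barely detected (detection p 0.0299).

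**Figure D3:**
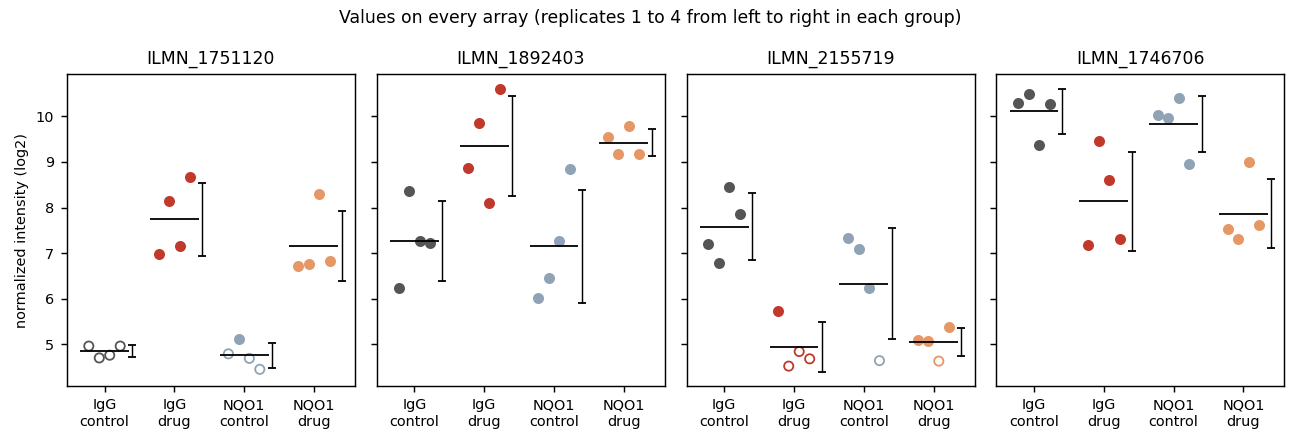
Normalized intensity (log2) of the 4 named probes on all 16 arrays, with replicates 1 to 4 from left to right in each group, filled points for detected and open points for undetected values, a line for the group mean and a bar for its SD. In the IgG groups ILMN_1751120 and ILMN_2155719 show no overlap, while ILMN_1892403 and ILMN_1746706 overlap at 1 array of each group, and the NQO1 groups run in the same direction for all 4 probes.

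The 10 probes with the smallest p in each direction were then read as lists. These values chose them, so their size in the IgG arrays is a description. The 10 leading higher probes had log2 differences of 1.70 to 2.94 (SE 0.44 to 0.68), adjusted p from 0.149 to 0.821 by limma, and IgG groups that did not overlap for 8 of the 10. No control array detected 6 of them, which met the detection rule through the drug group alone, and the bounds of these 6 ran from 1.56 to 2.61 (log2). The background for groups that do not overlap was 50 higher probes (0.315%) and 104 lower ones (0.655%). The 10 leading lower probes had differences of -2.63 to -1.07 (SE 0.35 to 0.70), each with an adjusted p of 0.821, and groups that did not overlap for 8 of the 10. All 10 were detected on each control array.

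Averaged over its 10 probes, the higher list read 4.95, 5.20, 5.00 and 5.13 on control replicates 1 to 4 and 6.43, 7.86, 6.79 and 8.42 on drug replicates 1 to 4 (log2). The 4 control arrays lay close together, and replicates 2 and 4 after the drug, the arrays with the fewest detected probes in their group, were the highest. Replicate 4 held the highest drug value for 8 of the 10 probes. The lower list averaged 9.05, 8.69, 8.84 and 9.08 in control medium and 7.14, 7.61, 7.69 and 5.94 after the drug. Here replicate 4 held the lowest drug value for 6 of the 10 probes.

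**Figure D4:**
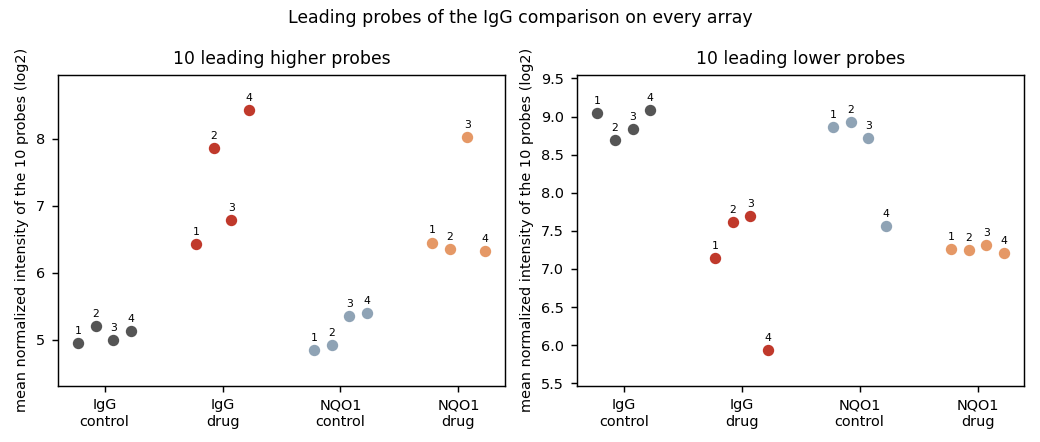
Mean normalized intensity (log2) of the 10 leading higher (left) and 10 leading lower probes (right) of the IgG comparison on each of the 16 arrays, numbered by replicate. Drug and control arrays are apart in the IgG groups, whose differences chose the probes. The NQO1 groups entered the choice through the joint normalization and the shared estimate of the spread. In the NQO1 groups the higher list reads 6.33 to 8.03 after the drug against 4.85 to 5.40 in control medium.

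The lists were therefore read within arrays of like detection. Among IgG arrays with over 16000 detected probes (3 control, 2 drug) the higher list had differences of 0.96 to 2.30 with a median of 1.46, and the lower list of -2.55 to -1.03 with a median of -1.52. All 20 probes kept their direction there. All 20 did so too between control replicate 2 and drug replicate 2, the only arrays with 13000 to 14000 detected probes, with differences of 1.49 to 3.45 and of -2.27 to -0.54. Drug replicate 4 had no control array of like detection. Over all tested probes 60.9% had the same sign in both classes of arrays (r = 0.239 across probes, a description), but the lists had been chosen on these same arrays. These ranges include probes not detected on any control array. ILMN_1751120, which is one of them, was at least 4.23-fold higher in the first class and at least 6.14-fold in the second, where each group is 1 array. For ILMN_1746706 the log2 difference was -2.09 and -1.05.

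Presence and absence gave a short list that shares probes with the leading higher one. In the IgG precipitates 11 probes (0.0693%) were detected on every drug array and on no control array, and 13 (0.0819%) the other way round. The 11 met the detection rule through the drug group alone, and their values in IgG were fixed by this choice. Their normalized values reached at most 9.41 (log2). Read on the NQO1 arrays, which did not enter this choice, they were detected in 35 of 44 possible readings after the drug and in 6 of 44 in control medium. Over all tested probes 89.3% of readings were detected on the NQO1 drug arrays and 78.9% on the NQO1 control arrays. Of the 11, 5 showed the full switch there too, from 0 to 4 detected arrays, and all 5 were leading higher probes. Over all 15867 tested probes 13 showed that switch (0.0819%). The 11 had mean IgG levels of 5.37 to 6.29 (log2), against 4.83 to 14.40 over all tested probes, so these shares are not a like background. Control replicate 4 of NQO1, where a detected value had to reach 7.02 (log2), entered each control absence there. Its part was not tested. None of the 13 lost probes was detected on all 4 NQO1 control arrays, so none could show the full switch there. That requirement included control replicate 4 of NQO1, with its floor of 7.02, while the 13 had mean IgG levels of 5.05 to 5.37 (log2). Over all 15867 tested probes 1 showed it (0.0063%). In the NQO1 precipitates the 13 were detected in 22 of 52 readings after the drug and 26 of 52 without it. Their IgG differences ran only from -0.95 to -0.08. Drug replicate 4, where a detected value had to reach 7.00 (log2), against 4.94 to 5.64 on the other IgG arrays, entered each of the 13 absences. Its part in them was not tested.

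The NQO1 precipitates gave 8 further arrays, although all 16 arrays were normalized together and share the fit's estimate of the spread. The labels do not say whether their cultures or lysates were separate from those of the IgG arrays. All 10 leading higher probes were higher after β-lapachone in the NQO1 precipitates too, by 0.99 to 2.39 with a median of 1.57 (log2). Some of them were not detected on any NQO1 control array, so their differences there stand against values not above background and are not firm sizes. All 10 leading lower probes were lower, by values of -1.98 to -0.68 with a median of -1.25. Over all tested probes only 33.1% ran in the same direction in both precipitates. The NQO1 groups did not overlap, in the same direction, for 8 of the 10 higher probes and 3 of the 10 lower ones. Over all probes the shares without overlap were 0.555% higher and 0.630% lower. The p that ranked the leading probes used the shared spread. A small spread within the NQO1 groups therefore favoured both their choice and a lack of overlap. Of the 10 higher probes 6 had also met the detection rule through the IgG drug group alone. The shares over all probes are therefore not a like background. The 10 probes leading each direction in the NQO1 precipitates shared 5 probes with the IgG list among the higher and 4 among the lower values. For lists of 100 probes 16 and 21 were shared. The shared spread entered both rankings, so these overlaps have no like background here. None of the 15867 probes passed limma's test in the NQO1 precipitates (0%, 89 at an unadjusted p under 0.05). That 89 became 174 without drug replicate 4 of IgG, 180, 151 and 168 without control replicates 1, 2 and 3 of NQO1, and 45, 40, 224 and 51 without drug replicates 1 to 4 of NQO1.

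The wider sets were read in the same way, where 56.9% of all tested probes were higher and 43.1% lower in the NQO1 precipitates after the drug. Of the 50 probes with higher, separate IgG groups 43 were also higher in the NQO1 precipitates (86%), 11 of them without overlap (22%). Of the 104 with lower, separate groups 74 were also lower (71.2%), 12 without overlap (11.5%). In IgG, 10 of the 50 and 7 of the 104 had met the detection rule through 1 group alone. Each set includes 8 of the 10 leading probes of its direction, so it is not separate from that list. Sets chosen by size alone gave other shares. Of the 967 probes at least 2-fold higher in IgG only 216 (22.3%) were higher in NQO1 precipitates, and of the 2052 at least 2-fold lower 501 (24.4%) were lower.

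**Figure D5:**
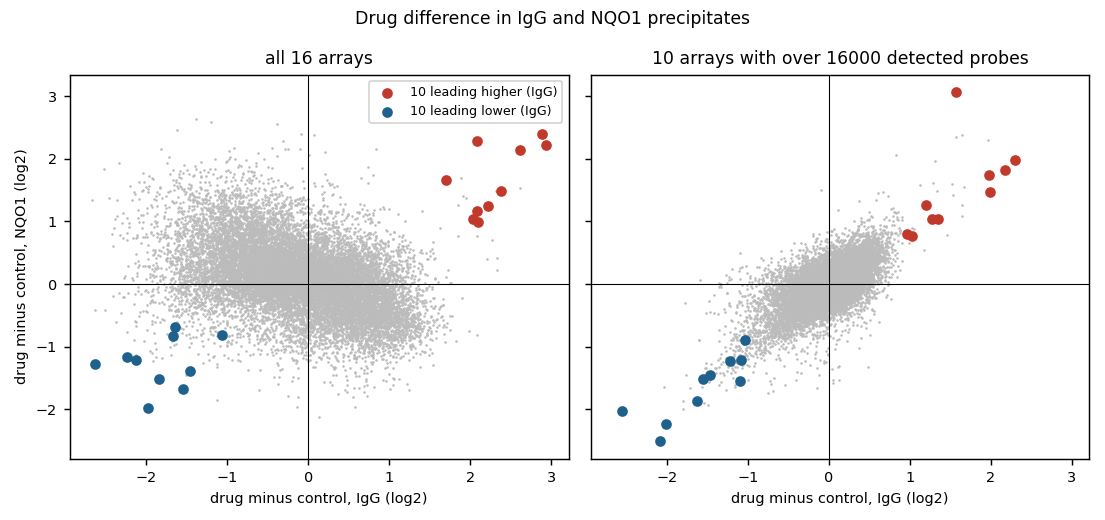
Difference between drug and control (log2) in the NQO1 (vertical axis) against the IgG precipitates (horizontal axis) for 15867 probes, from all 16 arrays (left) and from the 10 arrays with over 16000 detected probes (right), with the 20 leading probes of the IgG comparison coloured. The cloud of all probes turns from r = -0.412 to r = 0.675, while the 20 leading probes stay in the same quadrants.

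Across all 15867 probes the drug differences in the 2 precipitates had r = -0.412, given as a description of points that share arrays and normalization. Of the 16 arrays left out in turn, only control replicate 4 of NQO1 turned the sign, to r = 0.384. Without drug replicate 4 of IgG alone r was -0.0812. Without both of these, the 2 arrays under 10000 detected probes, it was 0.478. On the 10 arrays with over 16000 detected probes (3 control and 2 drug IgG, 2 control and 3 drug NQO1), a choice made after seeing the data, it was 0.675 and 72.1% of probes ran the same way. On those arrays the 10 leading higher probes had median differences of 1.46 in IgG and 1.36 in NQO1, and the 10 lower ones of -1.52 and -1.54.

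The named probes can be set side by side. ILMN_1751120 read 7.15 ± 0.77 after the drug and 4.76 ± 0.27 without it in the NQO1 precipitates (log2, SD, n = 4 each). ILMN_1892403 read 9.42 ± 0.30 against 7.14 ± 1.24, ILMN_1746706 7.86 ± 0.76 against 9.84 ± 0.61, and ILMN_2155719 5.05 ± 0.31 against 6.33 ± 1.22 (n = 4 each). For ILMN_2155719 control replicate 4 of NQO1 read 4.64 and was not detected, where the other NQO1 control arrays read 6.24 to 7.34. The part of that value in the difference between precipitates was not tested. The IgG difference minus the NQO1 difference was 0.50 for ILMN_1751120 (95% confidence interval -0.84 to 1.84), -0.20 for ILMN_1892403 (-2.16 to 1.76), 0.00 for ILMN_1746706 (-1.66 to 1.66) and -1.35 for ILMN_2155719 (-3.02 to 0.31). Each interval includes 0 and is too wide to show that the effects were alike. No probe passed limma's test of this difference (0% of 15867, smallest adjusted p 0.761, 24 at an unadjusted p under 0.05). With single arrays dropped in turn, this count of 24 ranged from 7 (without drug replicate 1 of NQO1) to 218 (without drug replicate 1 of IgG), and it changed by over 1.5 times for each array except control replicate 1 of IgG and control replicate 3 of NQO1.

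Averaged over both precipitates, a contrast added after seeing the data, β-lapachone gave 2 calls by limma, both higher (0.0126% of the tested probes, 239 at an unadjusted p under 0.05). The 239 became 414 without drug replicate 3 of IgG and 410 without control replicate 4 of NQO1. One of the 2 calls was ILMN_1751120 (adjusted p = 0.00684 by limma), whose 8 drug arrays each lay above all 8 control arrays after normalization. On the deposited scale drug replicate 4 of IgG, at 110.7, lay within the control range, which reached 145.1. The share of all probes so separated is not given here, and these arrays chose the probe. Only 1 of the 8 control arrays detected ILMN_1751120, so its size is a bound, at least 4.25-fold as the mean over both precipitates. It had met the detection rule only through the group where it was high. The other probe was the one with the second smallest p among the higher IgG values, which was higher by 2.58 (SE 0.36, limma adjusted p = 0.0242). Its IgG arrays averaged 5.16 ± 0.26 in control medium and 8.09 ± 0.92 after the drug (n = 4 each), and 2 of the 4 control arrays detected it. Both calls were lost without background correction (0 calls, smallest adjusted p 0.142) and with the replicate number as a block (0 calls, 0.0724). Leaving out 1 array gave 1 to 3 calls.

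On the 10 arrays with over 16000 detected probes the IgG comparison itself gave 2 calls by limma among the 15867 tested probes. These were the same 2 probes. There ILMN_1751120, again not detected on any IgG control array, passed with an adjusted p of 0.0128 by limma and a bound of at least 4.23-fold, and the other probe differed by 2.30 (SE 0.21, adjusted p = 0.0128). ILMN_2155719 differed by -2.55 (SE 0.38, adjusted p = 0.0959) and ILMN_1746706 by -2.09 (SE 0.42, adjusted p = 0.199). The IgG drug group then held 2 arrays. Averaged over both precipitates, 159 of the 15867 tested probes passed on these arrays, 28 higher and 131 lower. Among them were all 10 leading higher probes and 9 of the 10 leading lower ones. The leading probes had been chosen on IgG arrays that make up part of this contrast, so that count is a description.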

How the data were processed

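Intensities were deposited on a linear scale with a detection p-value beside each, under a name that calls them not normalized. The submitters' processing notes name GenomeStudio 2011.1, with settings not given in the sources used here. Arrays were assigned by title.

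Intensities of all 16 arrays were corrected by normexp from the detection p-values (offset 16), quantile normalized and log2 transformed by neqc (limma 3.58.1, R 4.3.3). Quantile normalization gives every array the same distribution, which raises the values of dim arrays. For the 15867 probes of the detection rule, lmFit and eBayes of limma then fitted 4 group means on the 16 arrays together. P-values were adjusted by Benjamini-Hochberg, with a threshold of 0.05. The fit was also run on simulated data with independent errors. Differences between the arrays here were shared across many probes, so that run does not show how the fit performs on them.

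Printed IDs are, in each direction, the probe with the smallest p and the one with the smallest p among probes detected on all 8 IgG arrays. The members, rules and lists were chosen with earlier results of these data known. Tried alternatives were the background correction, scaling, detection filter, arrays, array weights, covariates and a replicate block.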

Additional observations from a re-analysis of the deposited data

Results flagged for a closer look

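Dixon's gap test was run on 22 sets of 4 arrays: 3 array measures in both IgG groups, and the 4 named probes in every group. It marked 1 value at its 95% level, and about 1.1 would be marked by chance. This was ILMN_1751120 on drug replicate 3 of NQO1, which read 8.30 (log2) where the closest array of that group read 6.82. No IgG value was marked.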

How the results depend on the processing

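The IgG comparison kept 0 calls by limma without background correction, with median centring, with no detection filter, with the filters of all 8 IgG arrays, of 4 of 16 arrays and of a detection p under 0.01, with the 8 IgG arrays alone, with the number of detected probes as a covariate, and without the 2 arrays under 10000 detected probes. The replicate block gave 0 calls (193 at an unadjusted p under 0.05); deviations of same-numbered IgG arrays correlated at 0.0323, 0.826, 0.133 and -0.523, so replicate numbers were not treated as pairs. Calls were 2 with z scores, 12 with array weights, 22 with the first 2 principal components as covariates and 2 on the 10 arrays with over 16000 detected probes, the last chosen after seeing the data. ILMN_1751120 was among the calls in each of these 4 settings, and ILMN_2155719 in those with weights and components. The array weights stopped before they converged and ran from 0.00753 (control replicate 4 of IgG) to 17.4, so these counts are not firm. Leaving out each array gave 0 to 1 calls, the 1 without drug replicate 3 of NQO1. In the NQO1 precipitates calls were 6 with median centring, 2 with z scores, 1315 with weights, 12 with the covariate, 61 with components and 2 on 10 arrays (0 to 0 leaving out each array). The difference between precipitates kept 0 calls throughout (0 to 0). The average over precipitates gave 0 without background correction, 0 with the replicate block, 0 for probes detected on all 8 arrays, 18 with median centring, 10 with z scores, 295 with weights, 58 with the covariate, 516 with components, 159 on 10 arrays and 10 without 2 arrays (1 to 3 leaving out each array). For all these counts the cause was not tested. The 4 named probes kept their sign in every setting that tested them (ILMN_1751120 and ILMN_2155719 were not tested under the filter of all 8 IgG arrays). The 20 leading probes kept theirs in the NQO1 precipitates in all settings that tested them except median centring, where 18 did. The difference in detected probes ran from -3271 to -358 leaving out each array, and was -1910 at a detection p under 0.01.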
